A study of Homo sapiens with 12 samples.

Results

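The genes described here are the canonical histone genes of the human genome, taken as the protein-coding genes whose RefSeq symbol begins with H1-, H2AC, H2BC, H3C or H4C. There were 74 of them among 19974 protein-coding genes on chromosomes 1 to 22 and X. They comprised 10 H1, 17 H2A, 19 H2B, 13 H3 and 15 H4 genes, of which 55 lay on chromosome 6, 13 on chromosome 1 and 6 elsewhere. The rule selects by gene name and uses no measured value of the genes.

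The cells were Huh7, a human hepatocellular carcinoma line, wild type in the labels, and all groups were kept in a choline-free DMEM in which B-27 took the place of serum. One group received 15 µM choline for 48 h and the other 0 µM for the same time. Chromatin was immunoprecipitated for H3K27ac, a mark of active promoters and enhancers, or for H3K4me1, a mark of enhancers that also flanks promoters, and the deposited files list the peak summits of each library. The study asked how choline supply and the transcription factor KLF5 bear on enhancer marks and transcription in liver cancer cells. Each mark was profiled in 1 library per dose. No difference below therefore has a replicate check, and no test between doses was possible. Fewer cells carrying a mark and less mark per cell cannot be told apart in these bulk libraries.

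Histones package DNA: H2A, H2B, H3 and H4 form the core of the nucleosome, and H1 binds the linker DNA between cores. Most canonical histone genes are short, lack introns and are transcribed together during S phase, when newly replicated DNA has to be packaged, under the coactivator NPAT, and their mRNAs end in a stem-loop in place of a poly(A) tail. Many H2A and H2B genes stand head to head and share 1 stretch of promoter DNA. Some members are used in other settings, such as H1-10 at low level in most cells, H1-6 and H1-7 in the testis and H1-8 in the oocyte.

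On chromosome 6 the genes fell into 3 blocks more than 500 kb apart. The first held 34 genes from H2AC1 to H4C8 (hg38 chr6:25726063-26285534). The middle one held 5 genes from H2BC11 to H2AC12 (chr6:27132316-27147562). The last held 16 genes from H2BC13 to H2BC17 (chr6:27807479-27893891). On chromosome 1 a main block held 11 genes from H2BC18 to H2AC21 (chr1:149782689-149887965), and H2AC25 and H2BC26 formed a pair of their own (chr1:228457364-228458558). Those elsewhere included H1-10 and H1-8 on chromosome 3, H4C16 and H1-7 on chromosome 12 and H2BC12L on chromosome 21. The gene table gives no exons, so a summit is placed by its distance from a gene and not as exonic, intronic or in a UTR.

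The promoters below belong to members that the results turn on, and show how the families differ in the letters before their transcript starts. Each is the 250 bases before the annotated start, written 5′ to 3′ on the strand of the gene, from RefSeq on GRCh38.p14. Capitals mark the motifs searched on both strands: the TATA box TATAAA, the CCAAT box CCAAT, the octamer ATTTGCAT, the E2F-type site TTTCGCGC, the GC box GGGCGG, the KLF-type site CCCCACCC and the H1 box AAACACA. Motifs that abut or overlap run together in capitals. The H2B gene H2BC11 was the one member with an H3K27ac summit near its ends at 15 µM and none within 2 kb of them at 0 µM, and its promoter is chr6:27132796-27133045 on the minus strand. The H2B gene H2BC13 (chr6:27807930-27808179 on the minus strand) and the H4 gene H4C12 (chr6:27831561-27831810 on the minus strand) were the opposite case, both in the last chromosome 6 block. The linker gene H1-5 (chr6:27867589-27867838 on the minus strand), chosen after its values were seen, had an H3K27ac summit near its ends at both doses in that block.
H2BC11: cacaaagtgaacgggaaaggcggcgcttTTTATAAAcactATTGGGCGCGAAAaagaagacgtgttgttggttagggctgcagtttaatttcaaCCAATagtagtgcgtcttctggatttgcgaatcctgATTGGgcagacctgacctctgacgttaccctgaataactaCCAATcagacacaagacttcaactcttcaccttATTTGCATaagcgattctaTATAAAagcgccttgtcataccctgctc
H2BC13: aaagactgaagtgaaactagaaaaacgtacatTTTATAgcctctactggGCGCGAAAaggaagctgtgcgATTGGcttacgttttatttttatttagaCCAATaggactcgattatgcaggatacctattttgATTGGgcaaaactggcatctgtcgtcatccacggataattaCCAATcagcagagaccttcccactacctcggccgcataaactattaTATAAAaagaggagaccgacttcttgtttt
H4C12: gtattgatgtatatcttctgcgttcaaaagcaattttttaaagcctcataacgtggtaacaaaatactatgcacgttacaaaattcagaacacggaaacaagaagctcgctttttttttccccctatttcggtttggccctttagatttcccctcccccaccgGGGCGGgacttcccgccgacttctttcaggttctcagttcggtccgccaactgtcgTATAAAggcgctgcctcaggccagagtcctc
H1-5: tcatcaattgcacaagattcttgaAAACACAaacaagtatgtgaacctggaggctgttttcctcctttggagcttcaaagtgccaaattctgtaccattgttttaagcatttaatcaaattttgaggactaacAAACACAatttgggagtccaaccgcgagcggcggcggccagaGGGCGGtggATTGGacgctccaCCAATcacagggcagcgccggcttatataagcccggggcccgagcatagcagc

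A second set comes from members with H3K27ac at both doses outside that block. H3C2 (chr6:26032100-26032349 on the minus strand) lies in the first chromosome 6 block and was chosen after its values were seen. H2AC20 (chr1:149886668-149886917 on the plus strand), chosen after its letters were seen, is in the main chromosome 1 block and holds a KLF-type site. H4C14 (chr1:149832407-149832656 on the plus strand) has the same 300 bases around its start as H4C15, so reads from these bases cannot be placed on 1 of the 2 copies. H4C16 (chr12:14771132-14771381 on the minus strand) is a lone H4 gene on chromosome 12.
H3C2: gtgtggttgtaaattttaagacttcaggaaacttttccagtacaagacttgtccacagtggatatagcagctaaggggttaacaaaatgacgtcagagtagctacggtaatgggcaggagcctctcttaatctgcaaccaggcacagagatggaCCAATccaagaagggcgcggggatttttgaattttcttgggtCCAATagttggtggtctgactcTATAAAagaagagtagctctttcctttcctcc
H2AC20: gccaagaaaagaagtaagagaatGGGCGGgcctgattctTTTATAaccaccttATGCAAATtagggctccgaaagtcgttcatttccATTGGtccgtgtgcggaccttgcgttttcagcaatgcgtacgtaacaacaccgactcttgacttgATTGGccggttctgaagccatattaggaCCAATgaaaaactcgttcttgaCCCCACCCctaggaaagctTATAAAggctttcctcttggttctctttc
H4C14: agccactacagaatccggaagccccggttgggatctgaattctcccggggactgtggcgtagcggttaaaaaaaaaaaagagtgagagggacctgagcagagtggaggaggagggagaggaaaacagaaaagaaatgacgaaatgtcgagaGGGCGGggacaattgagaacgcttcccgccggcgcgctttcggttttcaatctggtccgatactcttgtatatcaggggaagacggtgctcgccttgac
H4C16: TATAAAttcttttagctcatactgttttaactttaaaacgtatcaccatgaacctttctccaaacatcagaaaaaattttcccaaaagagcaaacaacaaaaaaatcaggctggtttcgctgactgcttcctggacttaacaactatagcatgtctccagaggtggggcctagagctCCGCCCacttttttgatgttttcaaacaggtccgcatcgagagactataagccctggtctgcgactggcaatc

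Of the 74 members, 67 had a promoter entry, and those without one included H4C1, H4C3, H2AC12, H3C11, H3C12 and H2BC12L. A CCAAT box stood in 56 of the 67 promoters (83.6%), against 34.4% of the 15813 protein-coding promoters of the same 250 bases. It was present in 18 of 18 H2B, 16 of 16 H2A and 11 of 11 H3 promoters and in 8 of 9 H1 promoters, but in 3 of 13 H4 promoters. The TATA box stood in 43 members (64.2%), against 9.25% of all promoters. The octamer, a site of the POU factors such as POU2F1, was found in 14 of 18 H2B and 11 of 16 H2A promoters, in 1 of 11 H3 promoters and in no H1 or H4 promoter. In all it stood in 38.8% of the members and 1.66% of all promoters.

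The E2F-type site was in 11 members (16.4%, against 0.702% of all promoters), 5 of them H2A and 5 H2B genes. The H1 box, added to the search after the data were seen, was in 7 of the 9 H1 promoters and in no other member, against 3.70% of all promoters. GC boxes were fewer among the members, at 18 of 67 (26.9%), than among all promoters (56.0%), and 8 of the 18 were in H4 genes. The KLF-type site was in 4 members, H2BC21, H2AC20, H2BC3 and H4C8 (5.97%), against 11.6% of all promoters. A match is a run of letters and not a measured binding site, and no match says only that these letters are not in this window.

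H3K27ac summits were frequent at the ends of histone genes at both doses, and fewer members had one at 15 µM. A gene end counted as marked when a summit lay within 1 kb of either annotated end. At 15 µM 34 of 74 members were marked (45.9%, exact Clopper-Pearson 95% interval 34.3 to 57.9%), where the share over all protein-coding genes was 16.2%. At 0 µM 51 of 74 were marked (68.9%, 57.1 to 79.2%), where the share over all genes was 28.3%. Histone genes are short, which leaves less room near their ends. Among the 461 other protein-coding genes under 1 kb long, 1.30% were marked at 15 µM and 6.07% at 0 µM. Those genes had a median of 0 H3K27ac summits within 50 kb at each dose. The histone genes had a median of 8 at 15 µM and 12 at 0 µM. The sets thus differ in nearby summits as well, and the part of gene length in the marked share was not tested. The intervals cover counting error only. Neighbouring genes share summits, and the marked members rested on 45 distinct summits at 15 µM and 58 at 0 µM.

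An end was called lost when it was marked at 0 µM and the 15 µM list had no summit within 2 kb of either end, and gained in the opposite case. Of the 51 members marked at 0 µM, 18 were lost (35.3%, 22.4 to 49.9%), where the share over all genes was 43.9%. Of the 34 marked at 15 µM, 1 was gained (2.94%, 0.0744 to 15.3%), where the share over all genes was 10.5%. A further 30 members were marked at both doses, 19 at neither, and 6 were marked in 1 list with a summit of the other list between 1 and 2 kb away. The lost share of the histone genes as a whole is near that of all genes, and the members differed among themselves by where they lay. With absence required over 10 kb in place of 2 kb, 9 members were lost and 6 of these lay in the last chromosome 6 block.

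**Figure D1:**
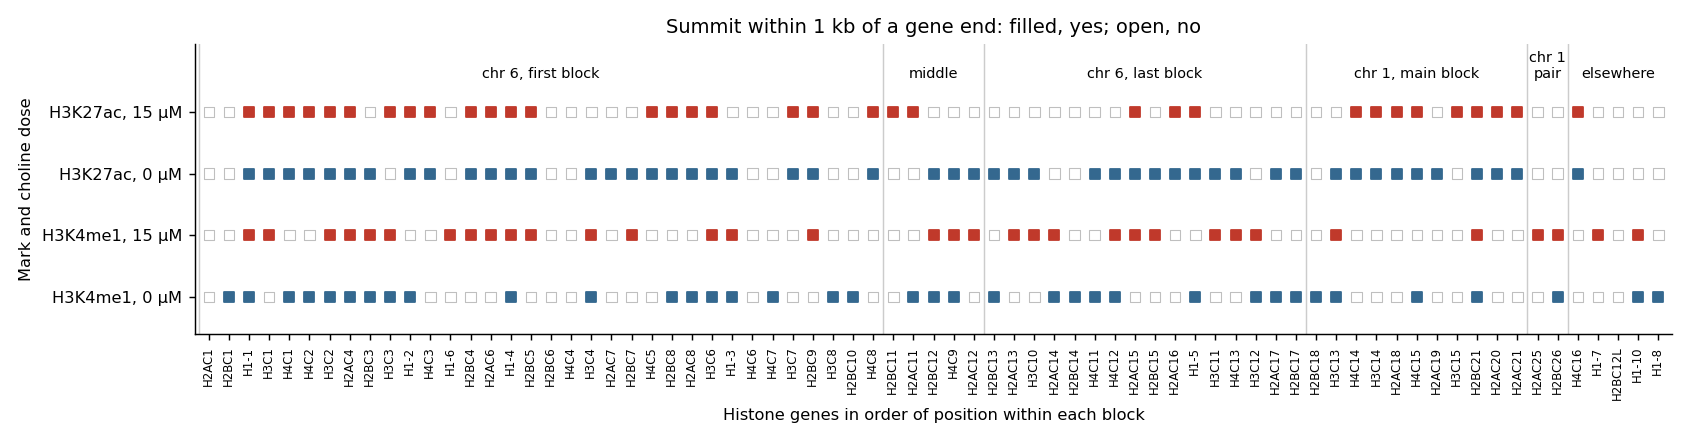
Presence of a summit within 1 kb of either end of each histone gene, 1 row per mark and dose (15 µM above 0 µM), 1 column per gene in order of position within each block, for 73 of the 74 members; filled squares are marked ends and open squares unmarked ends, from 1 library each. In the last chromosome 6 block 3 of 16 genes were marked with H3K27ac at 15 µM and 13 of 16 at 0 µM, while H3K4me1 marked 9 of 16 at each dose.

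The last chromosome 6 block had the lowest ratio of H3K27ac summits between the doses of the 5 blocks. H3K27ac marked 3 of its 16 genes at 15 µM (18.8%, 4.05 to 45.6%) and 13 of 16 at 0 µM (81.2%, 54.4 to 96.0%), where the shares over all genes were 16.2% at 15 µM and 28.3% at 0 µM. Of the 13, 9 were lost (69.2%, 38.6 to 90.9%), an interval that includes the 43.9% over all genes. Padded by 50 kb, the block held 4 H3K27ac summits at 15 µM, against 21 at 0 µM, a ratio of 0.19 (exact interval from counting 0.0475 to 0.565), where the ratio of the whole lists was 0.772. The interval lies below the whole-list ratio. This block was singled out after its values were seen.

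The 4 summits at 15 µM lay at chr6:27792700, before the block, at 27837169, which is 711 bp from the H2A gene H2AC15, at 27866178, which is 380 bp from the H2A gene H2AC16, and at 27867397, inside the linker gene H1-5, 191 bp downstream of the start whose promoter is printed above. Their scores, the authors' −log10 values, ran to 15.2, the one in H1-5, with a median of 9.82. The 21 summits at 0 µM had a median score of 9.69 and a highest of 25.6, and scores can be ranked only within a list. The list at 0 µM thus held summits across the block, and the list at 15 µM held 3 near its genes, around H2AC15, H2AC16 and H1-5. Of the 21 summits at 0 µM, 4 had a 15 µM summit within 500 bp (19.0%, 5.45 to 41.9%), against 38.7% over the whole list. Of the 4 at 15 µM, 3 had a 0 µM summit within 500 bp (75%, 19.4 to 99.4%), against 50.7%. Both intervals include the whole-list share, and few summits at 15 µM leave few partners for those at 0 µM.

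Core histone genes of all families were among the lost ends of this block. H3C11, an H3 gene, and H4C13, an H4 gene, had no H3K27ac summit within 2 kb at 15 µM and a best score of 25.6 within 1 kb at 0 µM. Both scores come from 1 summit, which lies inside H3C11 and 1373 bp from the start of H4C13. H2BC13 and H2AC13, a head-to-head H2B and H2A pair, had none at 15 µM and a best score of 15.6 at 0 µM, and H4C12 had the same best score at 0 µM from a summit 37 bp from its start. The other lost ends were those of H3C10, H4C11, H2AC17 and H2BC17, with best scores at 0 µM between 8.70 and 10.9. H2AC14, H2BC14 and H3C12 were marked at neither dose, and H2BC15 had a 15 µM summit between 1 and 2 kb away. Of the 9 lost ends, 6 had no 15 µM H3K27ac summit within 10 kb, those of H2BC13, H2AC13, H3C10, H4C11, H2AC17 and H2BC17.

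Counts in 50 kb windows around the 16 genes ran from 2 to 4 at 15 µM and from 9 to 17 at 0 µM. All were drawn from the 4 summits at 15 µM and the 21 at 0 µM of the padded block. H2AC16 had 3 at 15 µM, against 16 at 0 µM, and H3C12 had 2 at 15 µM and 9 at 0 µM. Both values for each gene describe the same small set of summits, because the windows of neighbours overlap. A window was called down when it held 5 or more summits at 0 µM and its 15 µM count was at most 0.5 times the scaled 0 µM count, a rule set after the values were seen. All 16 genes of this block met it, and 17 of the 66 members with 5 or more did, where the share over all genes was 18.0%. No member reached 2 times the scaled count, where 2.51% of all genes did. In the 500 kb on either side of the padded block the H3K27ac lists held 0 and 0 summits at 15 µM and 2 and 6 at 0 µM.

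H3K4me1 in the same block did not follow H3K27ac. The padded block held 55 H3K4me1 summits at 15 µM, against 46 at 0 µM, a ratio of 1.2, where the whole lists had a ratio of 1.02. H3K4me1 marked 9 of the 16 genes at 15 µM and 9 at 0 µM. Closer in, over the run from H2BC13 to H2BC17 padded by 5 kb, 26 H3K4me1 summits were listed at 15 µM, against 27 at 0 µM, beside 3 of H3K27ac at 15 µM, against 19 at 0 µM. The H3K27ac counts of that run differed by more than the H3K4me1 counts did.

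**Figure D2:**
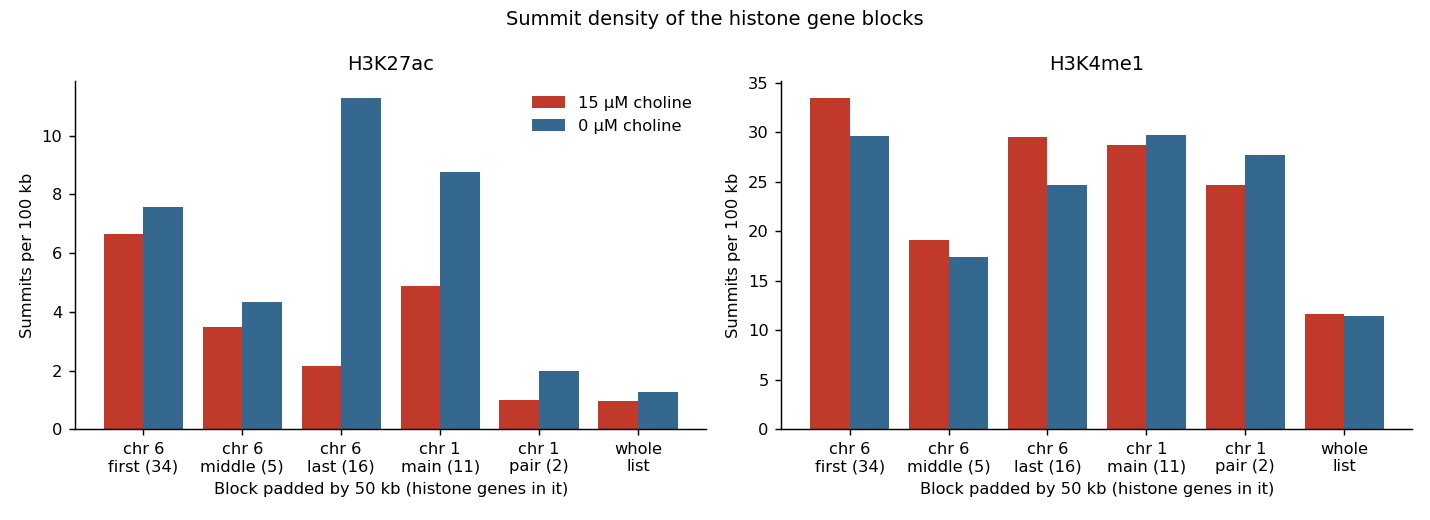
Summits per 100 kb in each histone gene block padded by 50 kb, each summit counted once, and over the whole list, with 15 µM left of 0 µM; H3K27ac is on the left and H3K4me1 on the right, each bar from 1 library. H3K27ac in the last chromosome 6 block was at 2.15 per 100 kb at 15 µM and 11.3 at 0 µM, while the first block was at 6.67 and 7.58 at those doses.

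The first chromosome 6 block, with 34 genes, kept nearly the same number of H3K27ac summits near its histone genes. Within 1 kb of a member or inside it lay 30 summits at 15 µM and 30 at 0 µM. The padded block held 44 at 15 µM and 50 at 0 µM, a ratio of 0.88 (0.573 to 1.35), an interval that includes the whole-list ratio of 0.772. Ends were marked in 20 of 34 genes at 15 µM (58.8%) and in 24 at 0 µM (70.6%), where the shares over all genes were 16.2% at 15 µM and 28.3% at 0 µM. Of the 24, 4 were lost (16.7%, 4.74 to 37.4%), where the share over all genes was 43.9%, and 0 of the 20 were gained, where it was 10.5%. Of the 44 summits at 15 µM, 23 had a partner within 500 bp in the other list (52.3%, 36.7 to 67.5%), against 50.7% over the whole list. Of the 50 at 0 µM, 22 had one (44.0%, 30 to 58.7%), against 38.7%. Both intervals include the whole-list share.

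The highest-scoring ends at 15 µM among all members were in this block or on chromosome 1. The linker gene H1-2 led with a best score of 24.3 at 15 µM, where its score at 0 µM was 32.5. H4C5 followed with 17.0 at 15 µM and 21.8 at 0 µM. H4C3, H2BC5, H3C7 and H2BC9 each reached 15.9 at 15 µM, with 25.5, 13.3, 8.55 and 14.4 at 0 µM in that order. Here and below, a gene's score is the best within 1 kb of its ends, so its 2 doses can refer to different summits. For H1-2, the 0 µM summit 20 bp from its best 15 µM summit scored 23.8. These genes were marked at both doses. Among genes chosen after their values were seen, H3C1 and H4C1, which share a summit, had 15.6 at 15 µM and 51.4 at 0 µM, the highest at any member in that list, and H3C2, shown above, had 13 at 15 µM and 39.1 at 0 µM.

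The 4 lost ends of the first block lay close together in 2 places. H3C4, H2AC7 and H2BC7, an H3, an H2A and an H2B gene around 1 shared promoter, had no H3K27ac summit within 2 kb at 15 µM and a best score of 19.8 at 0 µM. The nearest 15 µM summit was 2885 bp from the start that H3C4 and H2AC7 share in the annotation. The linker gene H1-3 had none within 2 kb at 15 µM and a best score of 10.9 at 0 µM. No member of this block was lost when absence was required over 10 kb.

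Within the first block the H3K27ac counts of its 2 dense runs differed in direction before scaling, as the plot of H3K27ac window counts shows, but not beyond their counting error. Over the run from H1-1 to H1-2, 9 genes in 49.4 kb with 5 kb added on each side, 15 H3K27ac summits were listed at 15 µM, against 9 at 0 µM. The window of H1-2 held 19 at 15 µM, against 14 at 0 µM, the largest scaled difference of the block. Over the run from H4C3 to H4C8, with 23 genes, 21 were listed at 15 µM, against 26 at 0 µM. H4C8, at the far end, had 4 within 50 kb at 15 µM and 9 at 0 µM, the smallest scaled difference of the block. The runs were drawn after the values were seen. Their ratios were 1.67 (0.683 to 4.32) and 0.808 (0.432 to 1.49), intervals that overlap and both include the whole-list ratio of 0.772. H3K4me1 had 19 summits at 15 µM and 27 at 0 µM over the run from H1-1 to H1-2 (ratio 0.704, 0.37 to 1.31). It had 83 at 15 µM and 71 at 0 µM over that from H4C3 to H4C8 (ratio 1.17, 0.841 to 1.63). These intervals also overlap and include the whole-list H3K4me1 ratio of 1.02, so no opposite direction of the marks is given.

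Several members of the first block had no H3K27ac end at either dose. They were H2AC1, H2BC1, H1-6, H2BC6, H4C4, H4C6, H4C7, H3C8 and H2BC10. H2AC1, H2BC1 and H1-6 are known from the testis, and H2AC1 and H2BC1, which lie apart from the rest of the block, had 1 summit within 50 kb at each dose. The testis gene H1-7 and the oocyte gene H1-8, outside the clusters, were also marked at neither dose. The members described as germ-line genes were grouped after their values were seen.

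The middle block was the only one in which a member was gained. At H2BC11 the 15 µM list had a best H3K27ac score of 14.6, with a summit 311 bp from the start, and no 0 µM summit lay within 2 kb of the gene. Its head-to-head neighbour H2AC11 had the same best score at 15 µM, and the nearest 0 µM summit was between 1 and 2 kb away. The other 3 genes, H2BC12, H4C9 and H2AC12, were all lost: they had none within 2 kb at 15 µM and best scores of 14.9, 13.2 and 14.9 at 0 µM. The block held 4 summits at 15 µM and 5 at 0 µM, so the counts were close and the places differed. The 15 µM summits lay at chr6:27132484, 27133165, 27134399 and 27135233, and the 0 µM summits at chr6:27135428, 27138316, 27139647, 27145847 and 27147603. In H3K4me1 the block padded by 50 kb held 22 summits at 15 µM, against 20 at 0 µM (ratio 1.1, 0.573 to 2.12), and padded by 5 kb it held 7 at 15 µM, against 13 at 0 µM (ratio 0.538, 0.182 to 1.45). The direction thus differed with the padding.

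**Figure D3:**
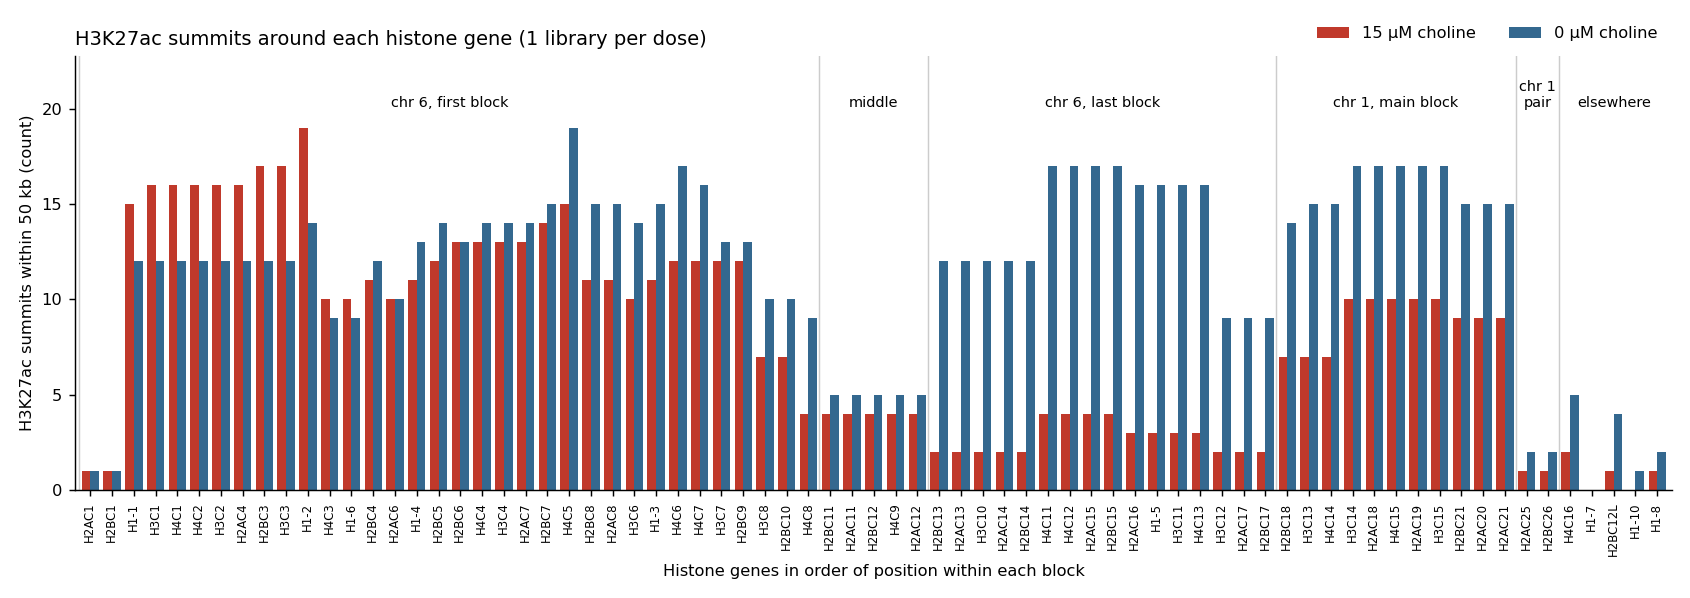
Number of H3K27ac summits from 50 kb before to 50 kb after each of 73 of the 74 histone genes, 15 µM left of 0 µM, genes in order of position within each block, 1 library per dose; windows of neighbouring genes overlap and share summits. The 16 genes of the last chromosome 6 block have 2 to 4 summits at 15 µM and 9 to 17 at 0 µM, and H1-2 in the first block has 19 at 15 µM and 14 at 0 µM.

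On chromosome 1 the main block kept most of its marked ends and had fewer H3K27ac summits at 15 µM. Ends were marked in 8 of 11 genes at 15 µM (72.7%, 39 to 94%) and 9 of 11 at 0 µM (81.8%, 48.2 to 97.7%). The shares over all genes were 16.2% at 15 µM and 28.3% at 0 µM. Of the 9, 1 was lost, H3C13 (11.1%, 0.281 to 48.2%, where the share over all genes was 43.9%), and none of the 8 was gained. The padded block held 10 at 15 µM, against 18 at 0 µM, a ratio of 0.556 (0.229 to 1.27), an interval that includes the whole-list ratio of 0.772. H3C13, an H3 gene, had no summit within 10 kb at 15 µM and a best score of 7.94 at 0 µM.

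The H2A gene H2AC18 had the highest end score of chromosome 1 at 15 µM, 15.9, where its score at 0 µM was 10.9. The H4 gene H4C14, with its promoter printed above, had 6.31 at 15 µM and 32.8 at 0 µM, and H4C15, which shares those bases, had 9.14 at 15 µM and 18.2 at 0 µM. H4C14 and H4C15 were marked at both doses, but what belongs to each copy cannot be told apart. H2BC21 and H2AC20, a head-to-head pair, had 3 H3K27ac summits within 1 kb of their starts at 15 µM and 1 at 0 µM. H2AC19 was marked at 0 µM and H3C15 at 15 µM, each with a summit of the other list between 1 and 2 kb away.

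In 50 kb windows every one of the 13 chromosome 1 members had a scaled H3K27ac difference below 0, where 43.2% of all genes did and 25.0% lay above 0. The windows of neighbours overlap and share summits, so the 13 values are not 13 separate observations. With each summit counted once, the main block had a ratio of 0.556 (0.229 to 1.27), an interval that includes the whole-list ratio of 0.772. The scaled difference is the 15 µM count minus 0.772 times the 0 µM count. Its median over the 13 was −3.13 summits, from a median of 9 at 15 µM and 15 at 0 µM. H2AC25 and H2BC26, the separate pair, had 1 summit in their windows at 15 µM, against 2 at 0 µM, all of them at the neighbouring gene RNF187. The nearest to a start was 29124 bp away at 15 µM and 29094 bp away at 0 µM. With 20 kb windows the median was −1.54, with a stricter score cut −1.48 and with lists of equal length −1.0, all of the same sign.

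Over all 74 members the median scaled H3K27ac difference was −0.58, with 30 above 0, 43 below 0 and 1 at 0, where the median over all genes was 0.00. Under other settings it ran from −3.00 to −0.27. The 55 chromosome 6 members had a median of 0.14 with 30 above and 25 below 0. That small positive value turned negative with 20 kb windows (−0.32), with a stricter score cut (−2.02) and without scaling (−2.0), so no direction is given for chromosome 6 as a whole. Its blocks differed: the median was 2.07 in the first (25 above and 9 below 0) and −8.20 in the last (0 above and 16 below 0). Over all genes 25.0% lay above and 43.2% below 0, and the windows of neighbours within a block share summits. In the first block the median window count was 12 at 15 µM, against 12.5 at 0 µM, and in the last it was 2.5 at 15 µM, against 14 at 0 µM.

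The 6 members outside the clusters had H3K27ac counts near those of all genes. Of them 1 was marked at 15 µM (16.7%, 0.421 to 64.1%) and 2 at 0 µM (33.3%, 4.33 to 77.7%). The shares over all genes were 16.2% at 15 µM and 28.3% at 0 µM. Their windows held a median of 1 summit at 15 µM and 3 at 0 µM, against 1 and 2 over all genes. H4C16, a lone H4 gene, was marked at both doses, scoring 8.68 at 15 µM, against 19.8 at 0 µM. Its window held 2 at 15 µM, against 5 at 0 µM. H1-10, H1-8, H1-7 and H2BC12L were marked at neither dose. H2BC12L had 1 within 50 kb at 15 µM and 4 at 0 µM. H1-8 had 1 at 15 µM and 2 at 0 µM, H1-10 had 0 at 15 µM and 1 at 0 µM, and H1-7 had 0 at each.

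By family, the marked share was lower at 15 µM in each of the 5, as it was over all genes (16.2% at 15 µM and 28.3% at 0 µM). It was 8 of 15 at 15 µM and 12 of 15 at 0 µM for H4, 7 of 13 and 9 of 13 for H3, and 9 of 17 and 13 of 17 for H2A at those doses. For H2B it was 6 of 19 at 15 µM and 11 of 19 at 0 µM, and for H1 4 of 10 and 6 of 10 at those doses. The lost ends were 4 of 12 for H4, 4 of 9 for H3, 4 of 13 for H2A, 4 of 11 for H2B and 2 of 6 for H1. These shares, from 30.8% to 44.4%, lay near or below the 43.9% over all genes. Families share summits through neighbours and are not independent of each other. No difference between families was tested.

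Summits of H3K27ac were concentrated at the transcript starts. Within 500 bp of a start the 67 members with a known strand had 32.8 summits per 100 genes per kb at 15 µM and 56.7 at 0 µM, and from 500 to 2000 bp away they had 22.9 at 15 µM and 30.8 at 0 µM. The 15746 other genes had 11.7 at 15 µM and 24.3 at 0 µM within 500 bp, and 5.68 at 15 µM and 8.23 at 0 µM from 500 to 2000 bp away. The relative drop away from the start was thus larger in the other genes at each dose. In the bin from the start to 500 bp downstream the members had 19.4 summits per 100 genes at 15 µM and 34.3 at 0 µM, the highest bin at 0 µM. At 15 µM the highest was the next bin, from 500 to 1000 bp downstream, with 22.4 at 15 µM and 20.9 at 0 µM. A summit near several starts was counted for each, and the counts within 500 bp were 22 at 15 µM and 38 at 0 µM.

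H3K4me1 showed a dip at the start. Within 500 bp the members had 8.96 summits per 100 genes per kb at 15 µM and 10.4 at 0 µM, and from 500 to 2000 bp 33.8 at 15 µM and 40.8 at 0 µM. The other genes had 15.4 at 15 µM and 16.1 at 0 µM within 500 bp, and 36.3 at 15 µM and 35.4 at 0 µM beyond. The marks thus took different places around the starts of histone genes and of other genes alike.

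**Figure D4:**
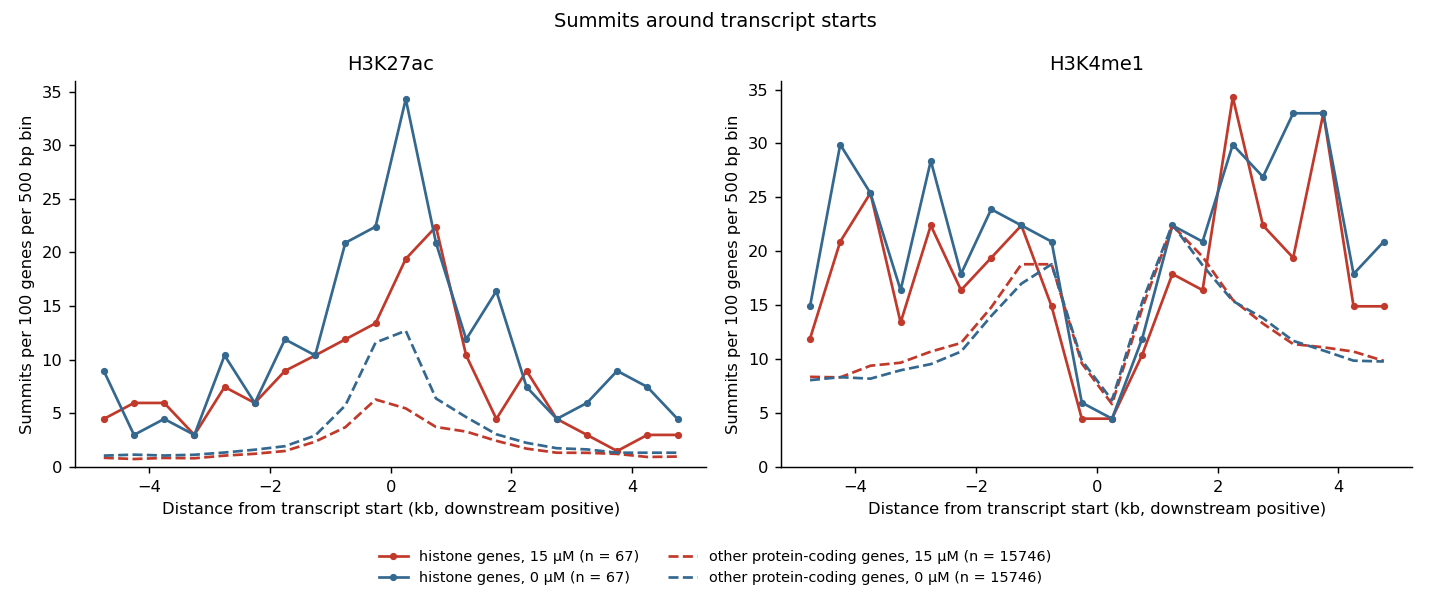
Summits per 100 genes in 500 bp bins by distance from the transcript start (downstream positive), for the 67 histone genes with a known strand (solid lines) and 15746 other protein-coding genes (dashed lines), 15 µM in red and 0 µM in blue, 1 library each. From 0 to 500 bp downstream the histone genes have 19.4 H3K27ac summits per 100 genes at 15 µM and 34.3 at 0 µM, and H3K4me1 dips there to 4.48 at each dose.

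There were 11 head-to-head pairs with starts within 500 bp of each other and 193 to 247 bases between them. An H3K27ac summit lay between the starts or within 1 kb of either in 4 pairs at 15 µM and in 7 at 0 µM. In the last chromosome 6 block it was 0 of 4 pairs at 15 µM and 3 of 4 at 0 µM. H2AC15 and H2BC15 had 0 such summits at 15 µM and 3 at 0 µM, H2AC17 and H2BC17 had 0 at 15 µM and 2 at 0 µM, and H2BC13 and H2AC13 had 0 at 15 µM and 1 at 0 µM. The pair H2BC11 and H2AC11 of the middle block had 2 at 15 µM and 0 at 0 µM, the opposite. H3K4me1 lay at 3 pairs at 15 µM and 3 at 0 µM. Head-to-head pairs of other genes were not counted, so these pair counts have no background.

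Motif content was set beside the H3K27ac calls. The TATA box was in 11 of 15 lost members with a promoter entry, 19 of 28 marked at both doses and 8 of 17 marked at neither. The CCAAT box was in 13 of 15, 22 of 28 and 14 of 17 in the same order, and the octamer in 6 of 15, 10 of 28 and 7 of 17. The E2F-type site was in 5 of 15 lost members, 2 of 28 marked at both doses and 2 of 17 marked at neither. The KLF-type site was in 0 of 15, 3 of 28 and 0 of 17. These are small counts over genes that share promoters, and no difference among them was tested.

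H3K4me1 marked about as many histone gene ends at each dose. It marked 34 of 74 at 15 µM (45.9%, 34.3 to 57.9%), where the share over all genes was 52.9%, and 38 of 74 at 0 µM (51.4%, 39.4 to 63.1%), where it was 51.6%. Of the 38 at 0 µM, 5 were lost (13.2%, 4.41 to 28.1%), where the share over all genes was 8.92%, and they were H1-8, H2BC1, H4C2, H4C7 and H1-5. Of the 34 at 15 µM, 4 were gained (11.8%, 3.30 to 27.5%), where the share was 10.9%, and they were H2BC7, H2AC12, H4C13 and H1-7. The intervals of all 4 shares include the share over all genes. H2BC7, H2AC12 and H4C13 are genes whose H3K27ac end was lost. The 9 genes were named after their values were seen.

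H3K4me1 windows did differ by place. The 3 largest scaled differences, which here scale the 0 µM count by 1.02, were around H2BC4, H2AC6 and H4C3, neighbours in the first chromosome 6 block. The window of H2BC4 held 58 at 15 µM, against 42 at 0 µM, H2AC6 had 52 at 15 µM and 37 at 0 µM, and H4C3 had 51 at 15 µM and 37 at 0 µM. The 3 smallest were neighbours on chromosome 1: H4C15 had 35 at 15 µM and 48 at 0 µM, H3C14 had 33 at 15 µM and 45 at 0 µM, and H3C15 had 30 at 15 µM and 42 at 0 µM. All 13 chromosome 1 members had a scaled difference below 0, where 50.1% of all genes did and 49.0% lay above 0, with a median of −8.63. The unique summits of the padded main block numbered 59 at 15 µM and 61 at 0 µM, a ratio of 0.967, so the overlapping windows show a larger difference than the summits counted once.

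Over all 74 members the median scaled H3K4me1 difference was 1.49, with 45 above and 29 below 0, and from −1.22 with 20 kb windows to 4.46 with 100 kb windows. The 55 chromosome 6 members had 2.54 with 50 kb windows and −0.28 with 20 kb windows, so the direction on chromosome 6 depended on the window. By the rule used for H3K27ac, 0 of the 73 members with 5 or more H3K4me1 summits at 0 µM were down and 0 reached 2 times the scaled count, where 2.22% and 1.06% of all genes did. No member lacked H3K4me1 within 50 kb at both doses, and the lowest count was that of H1-7, with 6 at 15 µM and 4 at 0 µM. In the last chromosome 6 block 14 of 16 genes were above 0 for H3K4me1, with a median of 3.07, where 49.0% of all genes were above 0. For H3K27ac 0 of 16 were above 0, where 25.0% of all genes were. The 16 windows overlap and share summits. Over the run of these genes padded by 5 kb, 26 H3K4me1 summits were listed at 15 µM, against 27 at 0 µM, so the H3K4me1 direction differed with the padding.

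**Figure D5:**
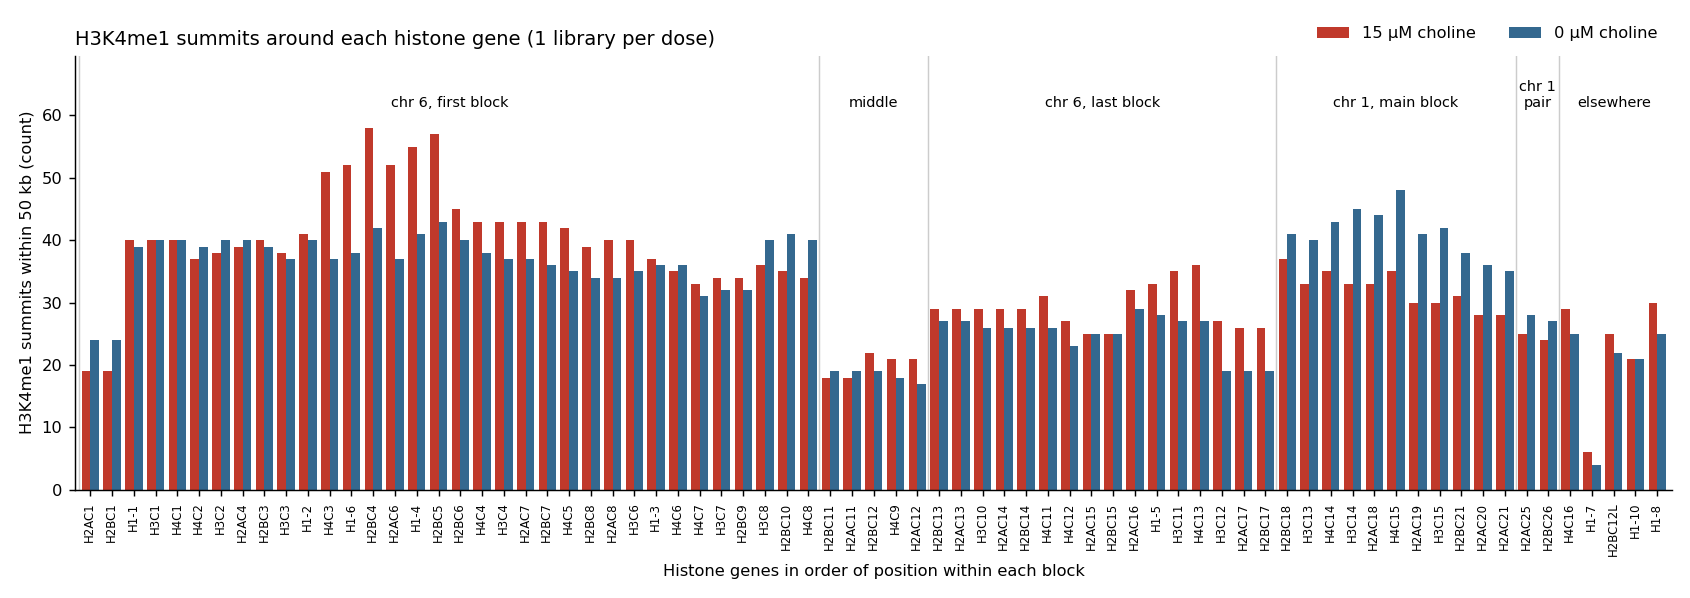
Number of H3K4me1 summits from 50 kb before to 50 kb after each of 73 of the 74 histone genes, 15 µM left of 0 µM, genes in order of position within each block, 1 library per dose; windows of neighbouring genes overlap. H2BC4 in the first chromosome 6 block has 58 at 15 µM and 42 at 0 µM, and H4C15 in the main chromosome 1 block has 35 at 15 µM and 48 at 0 µM.

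The marks were next compared at the same ends. Among members with an H3K27ac end, H3K4me1 also marked 13 of 34 at 15 µM (38.2%, 22.2 to 56.4%) and 25 of 51 at 0 µM (49.0%, 34.8 to 63.4%). Over all genes with an H3K27ac end the shares were 63.1% at 15 µM and 63.9% at 0 µM, above both intervals. Without an H3K27ac end it marked 21 of 40 members at 15 µM (52.5%, 36.1 to 68.5%) and 13 of 23 at 0 µM (56.5%, 34.5 to 76.8%). The shares over all genes were 50.9% at 15 µM and 46.8% at 0 µM. Among other genes an H3K27ac end more often carried H3K4me1 than an end without H3K27ac. Over the 74 histone genes the percentages ran the other way at each dose, but the intervals with and without H3K27ac overlap, so no direction is given. In the first chromosome 6 block they ran as in other genes: H3K4me1 marked 11 of 20 ends with H3K27ac and 5 of 14 without it at 15 µM, and 13 of 24 with it and 5 of 10 without it at 0 µM. In the H4 family 0 of 8 ends with H3K27ac also had H3K4me1 at 15 µM (up to 36.9% by the exact interval) and 6 of 12 did at 0 µM. The gap between histone genes and other genes was not tested, since neighbouring members share summits.

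Other genes of the histone pathway were taken from lists and read the same way. Among 20 genes of histone transcription and mRNA processing, H3K27ac marked 5 at 15 µM and 8 at 0 µM. Over all genes it marked 16.2% at 15 µM and 28.3% at 0 µM. There 2 were lost, SLBP, which binds the stem-loop of histone mRNA, and YY1, a zinc-finger factor, and none was gained. The window of YY1 held 1 summit at 15 µM, against 6 at 0 µM, and that of SLBP 2 at 15 µM, against 3 at 0 µM. NPAT was unmarked at 15 µM and marked at 0 µM, with a 15 µM summit between 1 and 2 kb away. Among 10 replacement histones, which are made outside S phase, 2 were marked at 15 µM and 3 at 0 µM, with 1 lost, H2AZ1.

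Histone chaperones and assembly factors had the most lost H3K27ac ends of the 4 lists. Of 15, 3 were marked at 15 µM and 12 at 0 µM, and 9 were lost: ASF1A and ASF1B, which hand over H3 and H4, CHAF1A, the large subunit of the replication-coupled assembly factor CAF-1, RBBP4, DAXX, ATRX, SSRP1, NAP1L1 and NAP1L4. The window of CHAF1A held 1 H3K27ac summit at 15 µM, against 10 at 0 µM. Of 18 S-phase genes 2 were marked at 15 µM and 10 at 0 µM, and 7 were lost, among them PCNA, MCM3 and MCM4, which work at the replication fork, RRM1, a subunit of ribonucleotide reductase, CDT1, which licenses origins, and LIG1, a DNA ligase. No H3K27ac end of the 4 lists was gained, where 10.5% of all genes marked at 15 µM were, and few listed genes were marked at that dose. These counts stand beside marked shares of 16.2% at 15 µM and 28.3% at 0 µM over all genes. The lost ends stand beside a loss of 43.9% over all genes marked at 0 µM. The part of these lists in the counts at histone genes was not tested. H3K4me1 marked 11 genes at 15 µM and 11 at 0 µM in each of the 3 lists of transcription, chaperones and S phase. Over all genes it marked 52.9% at 15 µM and 51.6% at 0 µM. No H3K4me1 end of these lists was lost, where the share over all genes was 8.92%.

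The H3K27ac lists held 29305 summits at 15 µM and 37946 at 0 µM, and the H3K4me1 lists 349202 at 15 µM and 343156 at 0 µM. Their lowest scores were 5.01 at each dose for H3K27ac, and 1.30 at 15 µM and 1.31 at 0 µM for H3K4me1. Read depth is unknown. The labelled cell type was read from marker lists: H3K27ac marked 7 of 8 hepatocyte and liver cancer genes at 15 µM and 6 of 8 at 0 µM, 1 of 5 blood genes at 15 µM and 0 of 5 at 0 µM, 1 of 3 endothelial genes at each dose, and 0 of 4 fibroblast and stellate genes at each. The windows of the hepatocyte genes held 172 H3K27ac summits at 15 µM, against 137 at 0 µM. That sum rests on the neighbours ALB and AFP, whose windows overlap: ALB had 44 at 15 µM, against 24 at 0 µM, and AFP had 42 at 15 µM, against 18 at 0 µM. Of the other 6 genes, APOB, TTR, SERPINA1 and HNF4A had fewer at 15 µM, and APOA1 and FGB had more.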

How the data were processed

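The deposited data were summit lists of 4 ChIP-seq libraries of Huh7 cells, H3K27ac and H3K4me1 at 15 and 0 µM choline, and the other 8 of 12 samples were not analysed here. Each line holds a position, a name and a score, which was taken to be a −log10 value because the authors deposited MACS2-style summit files. Whether it comes from a p-value or a q-value, how peaks were called and whether input entered are not given in the sources used here. Per the submitters' processing notes, MACS2, Bowtie, Picard and deepTools were used with hg38.

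Outside chromosomes 1 to 22 and X, 27 to 429 summits per list were left out. Positions are 1-based. Genes came from RefSeq tables of GRCh38.p14. Groups followed the labels. Ends, windows, blocks and motifs were counted in Python 3.11.15 with numpy 2.4.6, pandas 2.3.3 and scipy 1.17.1, and figures were drawn with matplotlib 3.10.9. Blocks join members under 500 kb apart. Ratios and shares carry 95% intervals by the exact Clopper-Pearson method, for counting error alone. Calls were tested on simulated data.

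The members, the gene lists and the rules were chosen with earlier results of these data known. Genes were named if they lay outside the clusters, were gained, were among the 8 lost ends with the highest scores, the 5 highest-scoring ends at 15 µM or the 3 largest or smallest H3K4me1 differences, had the largest or smallest H3K27ac difference of a block, shared a promoter, or were lost or gained in a pathway list. Others were named after their values were seen. Some genes meeting these criteria are left out of the text and figures. Alternatives covered distances, window sizes, score cuts, equal list lengths and scaling.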

Additional observations from a re-analysis of the deposited data

How the results depend on the processing

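No paired analysis was possible because each mark and dose had 1 library, and for the same reason no library could be left out. Depth is unknown, and the number of summits listed depends on it. Of the values under another setting, 5 changed sign, 39 moved by more than the limit set for their kind and 90 by less, and the cause was not tested beyond what each setting does by construction. The ratios of single blocks were added after seeing the data: for H3K27ac they ran from 0.182 to 0.25 in the last chromosome 6 block, 0.733 to 0.978 in the first and 0.526 to 0.909 in the main chromosome 1 block.

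For H3K27ac, 9 ends were lost with absence over 10 kb (18 over 2 kb), and gained ends numbered 2 from transcript starts only, 4 with absence over 1 kb and 0 over 10 kb (1 over 2 kb). The median scaled difference over all members was −3.00 without scaling, −1.48 with the stricter cut, −1.0 with equal list lengths, −0.36 with 20 kb and −0.27 with 100 kb windows (−0.58). On chromosome 6 it changed sign from 0.14 to −0.32 with 20 kb windows, −2.02 with the stricter score cut and −2.0 without scaling, and was 0.00 with equal list lengths. On chromosome 1 it was −1.54 with 20 kb windows, −4.67 with 100 kb, −1.48 with the stricter cut, −7.00 without scaling and −1.0 with equal list lengths (−3.13), where the ratio of its block summits was 0.846 (0.55). Block summits at 15 µM with a partner at 0 µM were 33.3% within 250 bp, 69.8% within 1 kb and 90.5% within 2 kb (52.4% within 500 bp), and those at 0 µM with a partner at 15 µM 21.9% within 250 bp and 59.4% within 2 kb (34.4%). Over the whole H3K27ac lists the shares within 500 bp were 50.7% at 15 µM and 38.7% at 0 µM.

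For H3K4me1, marked ends at 15 µM were 18 within 500 bp, 58 within 2 kb and 22 from starts only (34), and at 0 µM 16, 63 and 23 (38). Lost ends were 1 within 500 bp, 12 within 2 kb, 20 with absence over 1 kb and 0 over 10 kb (5). Gained ends were 2, 7, 16 and 1 at the same settings and 2 with the stricter cut (4). The median difference changed sign with 20 kb windows over all members (−1.22, from 1.49) and on chromosome 6 (−0.28, from 2.54), was 4.46 and 7.19 with 100 kb windows, was 0.29 over all members with the stricter cut, and on chromosome 1 was −4.21 with 20 kb and −5.09 with 100 kb (−8.63). Block summits at 15 µM with a partner at 0 µM were 29.1% within 250 bp, 67.0% within 1 kb and 81.4% within 2 kb (49.0%), and those at 0 µM with a partner at 15 µM 31.4%, 75.4% and 90.9% (55.4%). Over the whole H3K4me1 lists the shares within 500 bp were 43.5% at 15 µM and 44.5% at 0 µM.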
